A study of Saccharomyces cerevisiae with 6 samples.

Results

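The genes described here encode proteins of isoprenoid and sterol, fatty acid, sphingolipid, phospholipid and phosphoinositide synthesis in the yeast Saccharomyces cerevisiae, with transferases that attach lipids to proteins. Most encode enzymes, but SEC14 encodes a lipid transfer protein, TSC11 a subunit of a kinase complex and KEI1 a regulatory subunit. The genes were taken from a list of 34 essential genes. A gene was kept if the platform table gave its symbol to a probe and it had a value on at least 2 of the 6 arrays. Of the 34 genes 29 were kept, among 655 named genes of the series with as many values. No value was present for ERG7, ERG27, TSC13, AUR1 and RAM2. The list includes BET2, BET4, CDC43, RAM2 and NMT1, which use a lipid as substrate rather than make one.

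Each strain of the pool carried a DAmP allele (decreased abundance by mRNA perturbation) of 1 essential gene, in which a resistance cassette follows the coding sequence. Such a strain makes an mRNA with an extended 3′ end that also carries a molecular barcode. The pool was crossed with 3 deletions. The NMD2 pool lacked UPF2 and the NAM7 pool lacked UPF1, both factors of nonsense-mediated mRNA decay, and the YEL068C pool served the study as its reference. All pools were mixtures of haploid strains derived from BY4742 and BY4741, and all strains, the YEL068C pool included, carried both a DAmP allele and a deletion. They were grown for 18 generations under G418 and nourseothricin. Each pool is 1 cross, measured on 2 arrays that are technical replicates from the cell material on, so p-values measure technical spread alone.

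Nonsense-mediated decay removes mRNAs on which translation ends far from the normal mRNA end, and an extended 3′ end can make an mRNA its substrate. The lipid genes sit in pathways that share precursors. Acetyl-CoA enters the mevalonate pathway, which makes the isoprenoid units for ergosterol, the main yeast sterol, and for the prenyl groups of proteins. Acetyl-CoA is also carboxylated to malonyl-CoA, from which fatty acid synthase builds acyl chains. Acyl chains then join serine in sphingolipid synthesis or glycerol phosphate in phospholipid synthesis, where CDP-diacylglycerol and inositol give phosphatidylinositol, the source of the signalling phosphoinositides.

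Every value is a log ratio between a barcode amplified from RNA (Cy3) and the same barcode amplified from genomic DNA (Cy5), centred on the array median and read here as log2 of RNA over DNA. Read so, it follows RNA per strain, because the DNA signal stands for the number of cells of that strain. RNA and DNA came from different aliquots of a sample, and a change in RNA cannot be told apart from an error in the DNA signal. Gene length does not enter the scale. The base and the numerator of the deposited ratio are not stated. The labels describe a comparison of RNA to DNA, yet in the deposited sign all 11 measured genes of a list of abundant mRNAs lay below the array median in the YEL068C pool (median -2.95), as did 220 of all 444 features. The sign was therefore turned here, against the deposited one, and the direction is likely rather than certain. With the other direction every increase below would be a decrease.

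The NMD2 arrays had values for 658 and 798 probes, the NAM7 arrays for 666 and 792 and the YEL068C arrays for 660 and 749. Tests ran over 444 features valued on all 6 arrays, 22 of them genes of the list. Same-numbered arrays of different pools shared their deviations (r = 0.85 to 0.89 over 444 features). The typical SD between arrays was 0.288 without and 0.124 with the replicate number as a block. The list held genes with large gaps between the numbers: 6, 6 and 5 of the 22 differed by over 1 between the arrays of the NMD2, NAM7 and YEL068C pools, against 8.56%, 8.78% and 8.33% of all features. ERG20 was higher on the array numbered 2 by 1.74, 1.64 and 1.58 in these pools and LCB1 by 1.48, 1.46 and 1.40. What the arrays of a number shared is not stated.

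**Figure D1:**
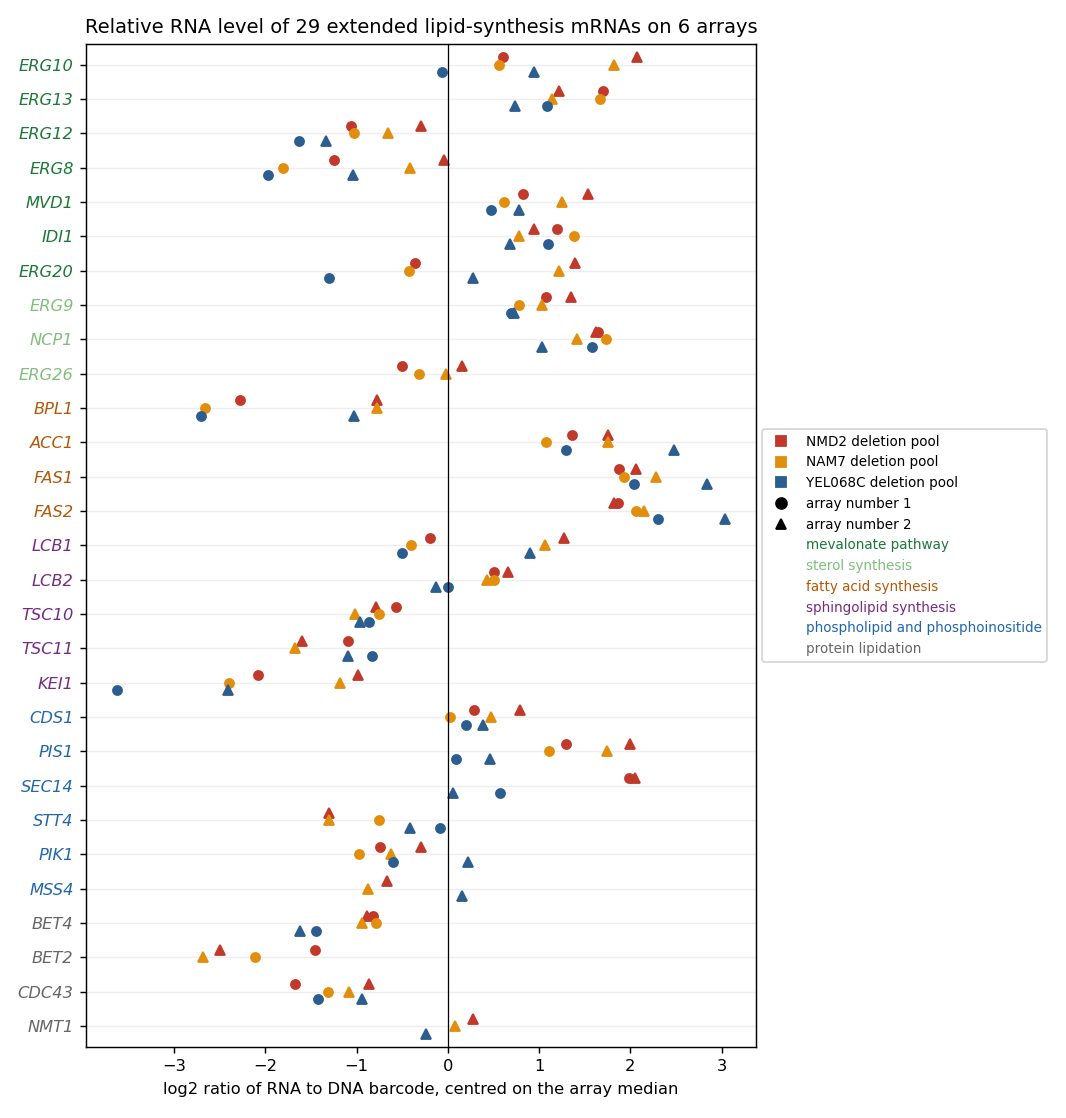
Relative RNA level (log2 ratio of RNA to DNA barcode, centred on the array median) of the 29 genes with values, grouped by role. Each point is 1 array, coloured by pool, with circles for arrays numbered 1 and triangles for arrays numbered 2. KEI1 lies at the low end in the YEL068C pool (-3.63 and -2.41) and FAS2 at the high end (2.30 and 3.04).

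Levels in the YEL068C pool are ranked here in the likely direction of the ratio, and the other direction would reverse the order. The 3 highest of the 22 genes were FAS2, FAS1 and ACC1, while BPL1 of the same role was among the lowest. FAS2, the alpha subunit of fatty acid synthase, had 2.67 ± 0.53 (SD, n = 2) and ranked 18 of 444 from the highest. FAS1, the beta subunit, had 2.44 ± 0.57 (rank 21), and ACC1, the acetyl-CoA carboxylase that makes malonyl-CoA, had 1.89 ± 0.84 (rank 41). The SDs of these 3 genes overlap, and 2 arrays do not resolve their order, although it was the same on both. On the YEL068C array numbered 1 the sterol gene NCP1 (1.58) exceeded ACC1 (1.29), so the place of ACC1 rests on the array numbered 2. The lowest were KEI1, the regulatory subunit of inositol phosphorylceramide synthase, at -3.02 ± 0.86 (rank 442), BPL1, the biotin ligase that modifies Acc1, at -1.87 ± 1.18 (rank 418), and BET4, the alpha subunit of the prenyl transferase that modifies Rab proteins, at -1.54 ± 0.12 (rank 400). BET4 is not resolved from ERG8 (-1.51 ± 0.65, rank 397) or ERG12 (-1.49 ± 0.20, rank 394). On the YEL068C array numbered 2 BPL1 (-1.03) lay above BET4 (-1.62), so the place of BPL1 rests on the array numbered 1. From its lowest to its highest gene the list covered 3.51 on the NMD2 arrays, 3.90 on the NAM7 arrays and 5.69 on the YEL068C arrays, taking pool means. Over all features the quartiles were -0.99 and 1.09, -1.0 and 1.07, and -0.95 and 0.96 in these pools, no wider in the YEL068C pool. Of the 22 genes 14, 14 and 12 lay above the array median in these pools.

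Both mutant pools were first compared with the reference together, which asks how extended mRNAs change when nonsense-mediated decay is lost. The sphingolipid gene KEI1 and the phosphatidylinositol synthase gene PIS1 rose most, by 1.36 and 1.26, and 6 of 7 genes of the mevalonate pathway rose. The genes of fatty acid synthase, acetyl-CoA carboxylase and a phosphatidylinositol 4-kinase fell. Here and below "rose" and "fell" are used of genes that passed limma's test with the replicate block at an adjusted p under 0.05. Without the block 0 of the 22 genes passed, against 4.05% of all features (smallest adjusted p among the 22 genes 0.0697). At an unadjusted p under 0.05 in that limma fit were 6 of the 22 genes (27.3%), near the 26.6% of all features. With the block 15 passed, where 59.9% of all features did. Of these, 11 rose (background 29.7%) and 4 fell (background 30.2%). The median over the 22 genes was 0.33, and over all features it was 0.00 with quartiles of -0.40 and 0.40.

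**Figure D2:**
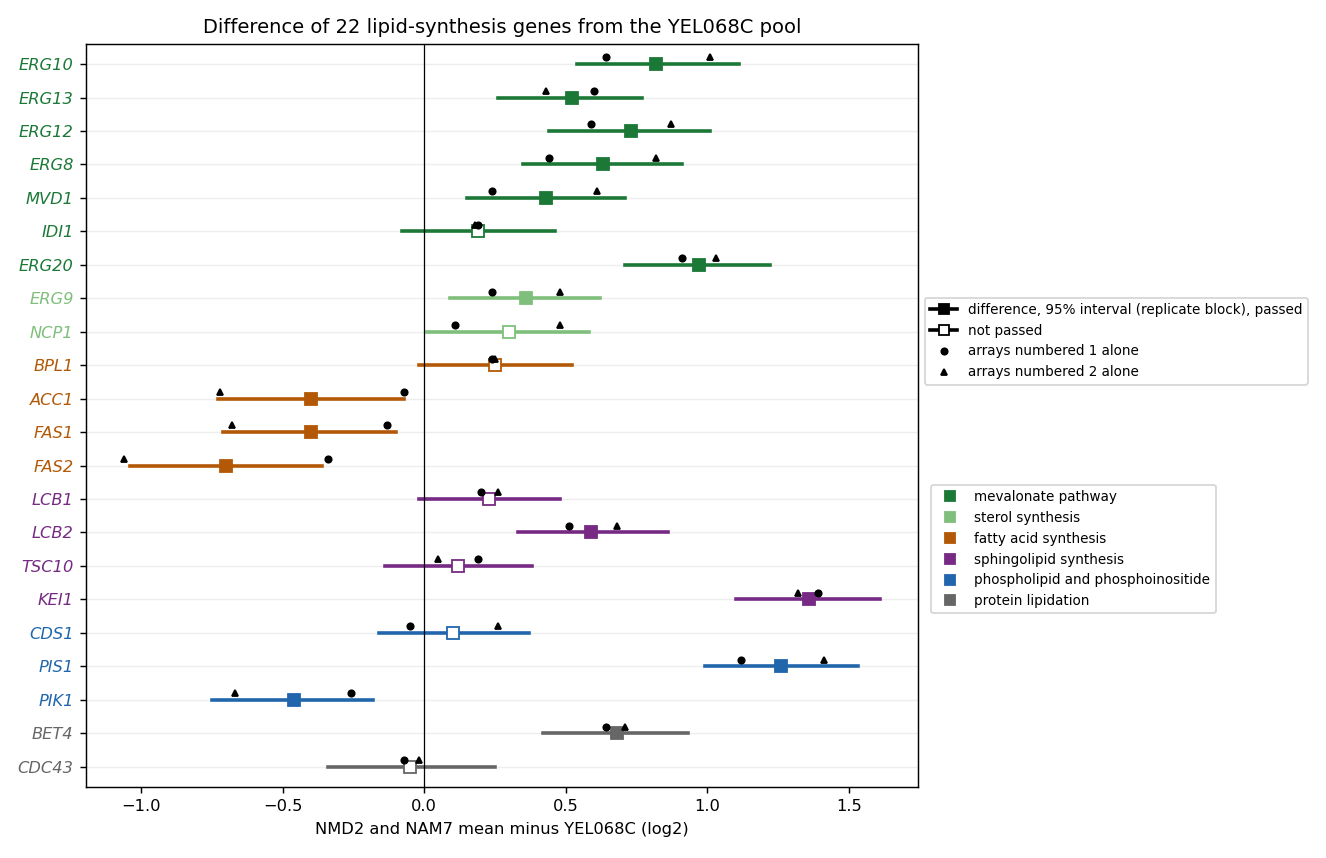
Difference between the mean of the NMD2 and NAM7 pools and the YEL068C pool (log2) for the 22 genes valued on all arrays, coloured by role. Squares give the difference with its 95% interval from the blocked fit, filled where the gene passed, and the small symbols give it within arrays numbered 1 (circles) and 2 (triangles). KEI1 (1.36) and PIS1 (1.26) lie farthest right and FAS2 (-0.70) farthest left.

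The mevalonate pathway runs from acetyl-CoA units to farnesyl diphosphate. Its 7 genes in the list all lay above 0, where 50% of all features did, with a median of 0.63 and a range of 0.19 to 0.97. All but IDI1 span over 1000 and up to 1500 nucleotides. Of 99 other genes of that length 41.4% rose, with a median of 0.23. ERG10, the acetoacetyl-CoA thiolase of the entry step, had 0.60 and 2.07 on the NMD2 arrays and 0.56 and 1.82 on the NAM7 arrays, against -0.06 and 0.94 on the YEL068C arrays. The groups overlap, since the YEL068C array numbered 2 exceeds both mutant arrays numbered 1. Within each number the mutant arrays were higher, by 0.64 and 1.01, and the blocked fit gave 0.82 (SE 0.13, adjusted p = 0.000193 in limma). Without the block the SE was 0.56 and the adjusted p = 0.374.

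ERG13, the HMG-CoA synthase, had 1.70 and 1.22 in the NMD2 pool and 1.67 and 1.14 in the NAM7 pool, against 1.09 and 0.74 in the YEL068C pool. Here the 4 mutant arrays lay above both reference arrays, and ERG13 rose by 0.52 (blocked SE 0.12, adjusted p = 0.00253 in limma). ERG12, the mevalonate kinase, had -1.06 and -0.30 in the NMD2 pool and -1.03 and -0.66 in the NAM7 pool, against -1.63 and -1.34 in the YEL068C pool, again without overlap. It rose by 0.73 (blocked SE 0.13, adjusted p = 0.000472 in limma, adjusted p = 0.168 without the block). ERG8, which adds the next phosphate as phosphomevalonate kinase, had -1.25 and -0.04 in the NMD2 pool and -1.81 and -0.42 in the NAM7 pool, against -1.97 and -1.04 in the YEL068C pool. Its groups overlap, with differences of 0.44 within number 1 and 0.82 within number 2, and it rose by 0.63 (blocked adjusted p = 0.0012 in limma).

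MVD1, the mevalonate diphosphate decarboxylase, had 0.82 and 1.54 in the NMD2 pool and 0.61 and 1.25 in the NAM7 pool, against 0.47 and 0.78 in the YEL068C pool. The groups overlap through NAM7 replicate 1, and MVD1 rose by 0.43 (blocked SE 0.13, adjusted p = 0.0115 in limma). The blocked call was lost without NMD2 replicate 2 (0.37) and without YEL068C replicate 2 (0.24). IDI1, the isopentenyl diphosphate isomerase, did not pass, at 0.19 (95% interval -0.08 to 0.46 with the block). ERG20, the farnesyl diphosphate synthase that supplies squalene and prenyl groups, had -0.36 and 1.39 in the NMD2 pool and -0.43 and 1.22 in the NAM7 pool, against -1.30 and 0.28 in the YEL068C pool. Its arrays overlap across pools, yet the difference was 0.91 within number 1 and 1.03 within number 2, and ERG20 rose by 0.97 (blocked SE 0.12, adjusted p = 2.7e-05 in limma, adjusted p = 0.414 without the block).

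Of the enzymes in the list that turn farnesyl diphosphate into ergosterol, ERG9 and NCP1 were valued on all arrays and ERG26 on 4. ERG1 and ERG11 of the same route, outside the list, rose by 1.11 and 0.84 and are described below. ERG9, the squalene synthase, had 1.08 and 1.35 in the NMD2 pool and 0.78 and 1.03 in the NAM7 pool, against 0.69 and 0.72 in the YEL068C pool. Every mutant array was above both reference arrays, and ERG9 rose by 0.36 (blocked SE 0.12, adjusted p = 0.0221 in limma). That call was lost without NMD2 replicate 1 (0.39), NMD2 replicate 2 (0.32), NAM7 replicate 2 (0.33) or YEL068C replicate 2 (0.24), and without centring (0.24). NCP1, the reductase that passes electrons to the sterol demethylase, differed by 0.30 (95% interval 0.01 to 0.58, blocked adjusted p = 0.072 in limma) and did not pass. NCP1 lies 59.8 kb from the deleted NMD2 on chromosome VIII, and whether that distance affects its NMD2 value was not tested. ERG26, a C-3 sterol dehydrogenase, had -0.50 and 0.15 in the NMD2 pool and -0.32 and -0.02 in the NAM7 pool, and no value on either YEL068C array, so it has no comparison with the reference.

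Fatty acid synthesis had a median of -0.40 over 4 genes, of which 3 fell, where 30.2% of all features did. The 3 are genes over 3000 nucleotides, and 85.4% of the 48 other genes of that length fell, with a median of -0.62. FAS2 had 1.86 and 1.82 in the NMD2 pool and 2.06 and 2.15 in the NAM7 pool, against 2.30 and 3.04 in the YEL068C pool, so that all mutant arrays lay below both reference arrays. It fell by 0.70 (blocked SE 0.15, adjusted p = 0.00188 in limma, adjusted p = 0.157 without the block). FAS1 had 1.88 and 2.06 in the NMD2 pool and 1.93 and 2.28 in the NAM7 pool, against 2.04 and 2.84 in the YEL068C pool, and fell by 0.40 (blocked adjusted p = 0.0249 in limma). The groups overlap, since both mutant arrays numbered 2 exceed the YEL068C array numbered 1.

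ACC1 had 1.36 and 1.76 in the NMD2 pool and 1.07 and 1.76 in the NAM7 pool, against 1.29 and 2.48 in the YEL068C pool. It fell by 0.40 (95% interval -0.73 to -0.07, blocked adjusted p = 0.0383 in limma), with overlapping arrays. These 3 decreases were carried mostly by the arrays numbered 2, with -0.34, -0.13 and -0.07 for FAS2, FAS1 and ACC1 within number 1 and -1.06, -0.68 and -0.72 within number 2. Without YEL068C replicate 2 the blocked difference comes from the arrays numbered 1 alone. It therefore repeats -0.34, -0.13 and -0.07, and these calls were lost. All 3 also missed the threshold without NMD2 replicate 2 (-0.59, -0.30 and -0.26), and FAS1 and ACC1 without NMD2 replicate 1 (-0.50 and -0.54) or NAM7 replicate 2 (-0.37 each). The ACC1 call was also lost in the blocked fit over features valued on at least 5 arrays (-0.40). BPL1, which attaches biotin to the carboxylase, differed by 0.25 and did not pass (95% interval -0.02 to 0.52 with the block).

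In sphingolipid synthesis 2 of the 4 genes valued on all arrays rose, where 29.7% of all features did. Of these 4 genes 0 fell, where 30.2% of all features did. TSC11, valued on 5 arrays, fell in a separate blocked fit. KEI1 had -2.08 and -0.99 in the NMD2 pool and -2.40 and -1.18 in the NAM7 pool, against -3.63 and -2.41 in the YEL068C pool. Its mutant arrays lay above both reference arrays, although NAM7 replicate 1 and YEL068C replicate 2 nearly met, the arrays numbered 2 being higher by 1.09, 1.21 and 1.22 in the NMD2, NAM7 and YEL068C pools. The difference was 1.39 within number 1 and 1.32 within number 2. KEI1 thus rose by 1.36, or 2.56-fold if the logarithm has base 2 (blocked SE 0.12, adjusted p = 2.21e-06 in limma, adjusted p = 0.165 without the block). The gene also had the lowest YEL068C ratio of the 22.

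LCB1 and LCB2 encode the subunits of serine palmitoyltransferase, which opens the pathway. LCB2 had 0.50 and 0.66 in the NMD2 pool and 0.50 and 0.43 in the NAM7 pool, against 0.00 and -0.13 in the YEL068C pool. The groups do not overlap and LCB2 rose by 0.59 (blocked SE 0.12, adjusted p = 0.0012 in limma, adjusted p = 0.12 without the block). LCB1 differed by 0.23 (95% interval -0.02 to 0.48) and did not pass, nor did the 3-ketosphinganine reductase gene TSC10 (0.12, interval -0.14 to 0.38).

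TSC11, also named AVO3, encodes a subunit of the TORC2 kinase complex, which controls sphingolipid synthesis. It had -1.10 and -1.60 in the NMD2 pool, -1.68 on the single valued NAM7 array, numbered 2, and -0.83 and -1.10 in the YEL068C pool. In a blocked fit over features valued on at least 5 arrays, added after the data were seen, TSC11 fell by 0.46 (SE 0.14, adjusted p = 0.0208 in limma with NAM7 replicate 1 missing), where 29.7% of 522 features were called lower. Without the block its adjusted p was 0.284.

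The phospholipid and phosphoinositide genes differed among themselves. CDS1, which makes CDP-diacylglycerol, differed by 0.10 (95% interval -0.16 to 0.37), and its sign turned without centring (-0.02). PIS1, the next enzyme, which joins inositol to CDP-diacylglycerol, had 1.30 and 2.0 in the NMD2 pool and 1.11 and 1.74 in the NAM7 pool, against 0.09 and 0.46 in the YEL068C pool. Every mutant array lay above both reference arrays. PIS1 rose by 1.26, a 2.4-fold difference in base 2 (blocked SE 0.12, adjusted p = 4.69e-06 in limma), and its adjusted p without the block, 0.0697, was the smallest of the 22 genes.

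SEC14 encodes the transfer protein for phosphatidylinositol and phosphatidylcholine. It had 1.98 and 2.05 in the NMD2 pool, against 0.57 and 0.06 in the YEL068C pool, and no value on either NAM7 array. SEC14 lies 0.652 kb from the deleted NAM7 on chromosome XIII (R64 coordinates 424989 to 426059). In an unblocked fit of the NMD2 and YEL068C arrays alone, added after the data were seen, SEC14 differed by 1.70 (SE 0.33, adjusted p = 0.0392 in limma), where 1.48% of 474 features were called higher.

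The list holds 3 phosphoinositide kinases. PIK1, the phosphatidylinositol 4-kinase of the Golgi and nucleus, had -0.74 and -0.29 in the NMD2 pool and -0.97 and -0.62 in the NAM7 pool, against -0.60 and 0.22 in the YEL068C pool. Its arrays overlap, and it fell by 0.46 (blocked SE 0.13, adjusted p = 0.00854 in limma), a call lost without NMD2 replicate 1 (-0.50), NMD2 replicate 2 (-0.43) or YEL068C replicate 2 (-0.26). STT4, the plasma membrane 4-kinase, had -1.30 on the single valued NMD2 array, numbered 2, and -0.76 and -1.30 in the NAM7 pool, against -0.09 and -0.42 in the YEL068C pool. All mutant values lay below both reference values. With NMD2 replicate 1 missing, the blocked fit over features valued on at least 5 arrays gave -0.80 (SE 0.14, adjusted p = 0.00138 in limma), and the unblocked fit gave an adjusted p of 0.157. MSS4, which makes phosphatidylinositol 4,5-bisphosphate, was valued on the arrays numbered 2 alone, with -0.67 in the NMD2 pool and -0.88 in the NAM7 pool, against 0.16 in the YEL068C pool, differences of -0.83 and -1.03 with no replicate check.

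Among the genes of protein lipidation, BET4 had -0.82 and -0.89 in the NMD2 pool and -0.79 and -0.94 in the NAM7 pool, against -1.45 and -1.62 in the YEL068C pool. The groups do not overlap and the arrays of a pool differed by at most 0.18. BET4 rose by 0.68 (SE 0.12 with the block and 0.20 without it, adjusted p = 0.000369 and 0.0931 in limma). BET2, the beta subunit of the same enzyme, had -1.46 and -2.50 in the NMD2 pool and -2.11 and -2.68 in the NAM7 pool but no YEL068C value. CDC43, a subunit of another protein prenyl transferase, differed by -0.05 (95% interval -0.34 to 0.25) and did not pass. NMT1, the N-myristoyltransferase, was valued only on the arrays numbered 2, with 0.28 in the NMD2 pool and 0.08 in the NAM7 pool, against -0.24 in the YEL068C pool.

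Over the 22 genes, all 4 mutant arrays lay above both YEL068C arrays for 7 (ERG9, ERG12, ERG13, LCB2, KEI1, PIS1 and BET4), where 22.1% of all features did, and below them for 1 (FAS2), where 19.6% did. Of the 15 blocked calls 9 stayed past the threshold whichever array was left out. These were ERG8, ERG10, ERG12, ERG13, ERG20, LCB2, KEI1, PIS1 and BET4, all of them increases, so that 9 of 11 increases and 0 of 4 decreases were kept. Over all features 66.7% of 132 increases and 48.5% of 134 decreases were kept in the same way. No test was made of these shares.

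Longer genes of the list had lower differences; the choice of genes did not use span. Length is a question the study took up for these mRNAs. The 22 genes spanned 663 nucleotides (PIS1) to 6702 (ACC1), by R64 gene coordinates. Across them Spearman's rank correlation between span and difference was -0.62, against -0.61 across the 411 other named genes, given as a description because the genes share the same 6 arrays. Of these 22, the 4 genes over 3000 nucleotides, ACC1, FAS1, FAS2 and PIK1, were the 4 that fell. Their median was -0.43, where 48 other genes of that class had -0.62. TSC11 (4293) and STT4 (5703), valued on 5 arrays, had -0.46 and -0.80 in the separate blocked fit. At the short end KEI1 (chromosome IV, 1212848 to 1213614, 767 nucleotides) and PIS1 (chromosome XVI, 752257 to 752919) rose most, while IDI1 (867) and TSC10 (963) did not pass.

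Within classes of span the genes of the list valued on all arrays tended to lie high, while partly valued ones did not. Between 1000 and 1500 nucleotides the median was 0.57 for 10 genes of the list, of which 8 rose, against a median of 0.23 over 99 other genes of that class, of which 41.4% rose. For the 4 genes up to 1000 nucleotides the median was 0.72, against 0.43 over 112 others. LCB1 and LCB2, over 1500 and up to 2000, had 0.23 and 0.59, against a median of -0.12 over 78 others, and BPL1 and NCP1, over 2000 and up to 3000, had 0.25 and 0.30, against -0.34 over 74 others. In all 14 of 22 genes lay above the upper quartile of the other genes in their class and 0 below the lower quartile. Genes without all values are not in these counts. MSS4 (2340) had -0.93 on arrays numbered 2, below its class's lower quartile of -0.50. Over 3000 nucleotides, STT4 had -0.80 and TSC11 -0.46 in the blocked fit over at least 5 arrays, where the quartiles were -0.79 and -0.45. NMT1 (1368) had 0.43 on arrays numbered 2, between the quartiles of -0.11 and 0.51. No test was made of these positions, and the genes were listed with results of these data known.

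**Figure D3:**
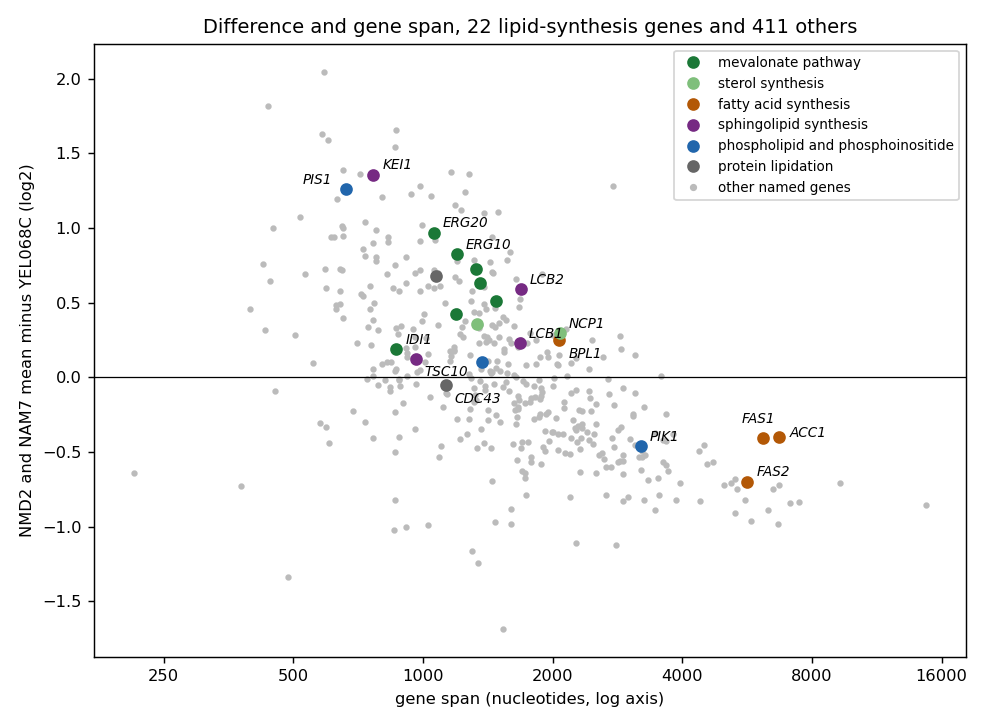
Difference between the mean of the NMD2 and NAM7 pools and the YEL068C pool (log2) against gene span in nucleotides (log axis). The 22 genes are coloured by role and the 411 other named genes are grey; ACC1, FAS1, FAS2 and PIK1 are the only coloured points over 3000 nucleotides and lie below 0.

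Each mutant pool was also set against the reference alone. Both comparisons use the same YEL068C arrays. In the NMD2 pool 13 of 22 genes passed with the block (53.8% of all features), 11 higher (28.4%) and 2 lower (25.5%), with a median of 0.43. In the NAM7 pool 12 passed (50.7%), 9 higher (25.7%) and 3 lower (25%), with a median of 0.24. Without the block 0 of 22 genes and 0% of features passed in either pool by limma. At an unadjusted p under 0.05 in that fit were 6 genes in the NMD2 pool (27.3%, against 22.3% of all features). In the NAM7 pool there were 2 (9.09%, against 20.5%). KEI1 differed by 1.48 and 1.23 in the NMD2 and NAM7 pools, PIS1 by 1.38 and 1.15, and ERG20 by 1.03 and 0.90. ERG8 differed by 0.86 and 0.40 and FAS2 by -0.84 and -0.56. With the block 9 of 22 genes rose in both pools, where 23.6% of all features did, and 1 (FAS2) fell in both, where 19.8% did. ERG9, MVD1 and FAS1 passed in the NMD2 pool without passing in the NAM7 pool, and ACC1 and PIK1 the reverse, but none of these 5 passed the test between the pools.

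That direct test gave 0 of 22 genes and 0% of features without or with the block. At an unadjusted p under 0.05 with the block there were 2 of the 22 genes and 55 of 444 features, and without it 0 and 2. The difference was 0.47 for ERG8 (95% interval 0.14 to 0.80, blocked adjusted p = 0.235 in limma) and 0.30 for ERG9 (0.00 to 0.61). For KEI1 it was 0.26 (-0.04 to 0.55), for PIK1 0.28 (-0.05 to 0.60), for ACC1 0.14 (-0.24 to 0.53) and for FAS2 -0.27 (-0.66 to 0.12). Values were higher in the NMD2 pool for 18 of 22 genes, where 246 of 444 features were, with a median difference of 0.16 against 0.02 over all features. Within the arrays numbered 1 and 2 this median was 0.13 and 0.21. In the unblocked fit with 1 array left out it ranged from -0.12 to 0.47. It was negative there without NMD2 replicate 2 (-0.12) and NAM7 replicate 1 (-0.08). Leaving 1 array out of that fit breaks the pairs, so these medians also hold the deviations that same-numbered arrays share.

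**Figure D4:**
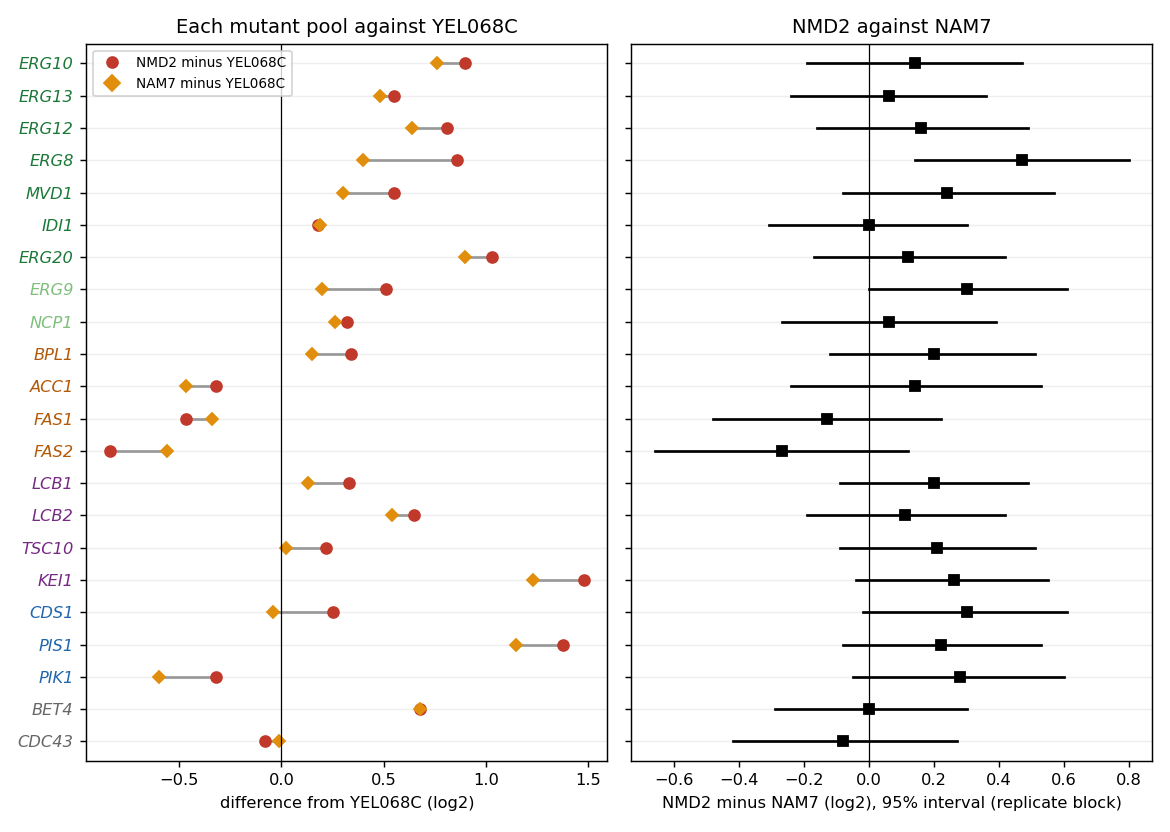
Left, difference from the YEL068C pool (log2) for the NMD2 pool (circles) and the NAM7 pool (diamonds), which share the YEL068C arrays. Right, NMD2 minus NAM7 (log2) with its 95% interval from the blocked fit, before adjustment over features; the interval of ERG8 (0.14 to 0.80) lies above 0 and its adjusted p was 0.235.

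Other genes of lipid synthesis came from a list of 31, of which 16 had a value and 10 were valued on all arrays. With the block 5 of the 10 rose, 2 fell and 3 did not pass, against 29.7% of all features higher, 30.2% lower and 59.9% either way; the share called, 7 of 10, is near that background. The median of the 10 was 0.27. The later sterol enzymes ERG1, the squalene epoxidase, and ERG11, the lanosterol demethylase, rose by 1.11 and 0.84. CAB5 of coenzyme A synthesis rose by 0.86, PGS1 of phosphatidylglycerol synthesis by 0.78 and NUS1 of dolichol synthesis by 0.50. OLE1, the fatty acid desaturase that acts on the products of fatty acid synthase, fell by 1.68. Its values were 1.64 and 1.88 in the NMD2 pool and 1.81 and 2.12 in the NAM7 pool, against 3.24 and 3.86 in the YEL068C pool, without overlap. ACP1, the mitochondrial acyl carrier protein with a span of 378 nucleotides, fell by 0.72. The unblocked limma fit also called ERG1 (adjusted p = 0.0454) and OLE1 (adjusted p = 0.0437) among these 7 genes.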

How the data were processed

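RNA and genomic DNA barcodes of DAmP strain pools were read on 2-colour barcode arrays, 2 per pool, without dye swaps, per the labels. The authors deposited 1 table of log2 ratios (base inferred from the values, -6.20 to 4.09) with 15743 probe rows, whose background correction, scaling and probe filter are not given in the sources used here. Of 843 probes with a value, 827 had 1 gene in the platform table, 0 several and 16 none. The series text says that up tags alone were interpreted, and the platform table does not mark them. Among valued genes with 2 platform probes, 9 of 507 had values on both.

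Signs were turned, values of a gene were averaged over its probes present on all 6 arrays (444 features), and each array was centred on its median. Differences were tested over all features in R 4.3.3 by the moderated test of limma 3.58.1 (1 term per pool, 3 residual degrees of freedom, two-sided, Benjamini-Hochberg threshold 0.05). This fit, without the block, was planned as the main one. Replicate numbers come from the sample titles. Deviations of same-numbered arrays correlated with r = 0.89, 0.85 and 0.89 between pools, so the numbers were treated as pairs and blocked values are printed. The blocked fit added a term for the replicate number, which left 2 residual degrees of freedom. Genes said to have risen or fallen were called by the blocked fit. Alternatives were no centring, quantile normalization, a looser value filter, the 1st probe and 1 array left out. Genes and lists were chosen with earlier results of these data known. By rule, any gene of the list with a value could be named, and other pathway genes if they passed in the mean comparison with the block. Positions and spans are from RefSeq R64. Array signals, saturation and barcode sequences were not analysed here, and the number of arrays limits the precision.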

Additional observations from a re-analysis of the deposited data

How the results depend on the processing

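The replicate block changed most calls. With it 15, 13 and 12 genes of the list (266, 239 and 225 features) passed in the mean, NMD2 and NAM7 comparisons with YEL068C, against 0 (18, 0 and 0 features) without it. Without the block, the 18 features of the mean comparison became 0 without centring, 2 with features valued on at least 1 array per pool, and 0 to 9 when 1 array was left out; for NMD2 the count was 0 to 7. With the block and 1 array left out, 9 to 16 genes of the list passed for the mean, 6 to 16 for NMD2 (124 to 235 features) and 6 to 13 for NAM7. For NMD2 minus NAM7 the blocked count of features was 0 to 5 with 1 array left out, 6 without centring, 4 after quantile normalization and 5 with the 1st probe of each gene. The cause was not tested.

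Centring removed a shift: without it the median of all features moved by -0.12 in the mean comparison, and blocked calls split into 110 higher and 169 lower, against 132 and 134. CDS1 turned to -0.02 without centring, with and without the block, and the median for NMD2 became 0.30. In the unblocked fits with 1 array left out, the median over the 22 genes ranged from 0.22 to 0.51 for the mean. For NMD2 it ranged from 0.22 to 0.65, for NAM7 from 0.08 to 0.42 and for NMD2 minus NAM7 from -0.12 to 0.47. In the mean comparison without the block, signs turned for genes that had not passed or had passed with the block alone: IDI1 ranged from -0.02 to 0.40, ACC1 from -1.0 to 0.20, LCB1 from -0.47 to 0.93, CDS1 from -0.02 to 0.23, BPL1 from -0.59 to 1.08 and CDC43 from -0.28 to 0.19. With the block CDS1 ranged from -0.04 to 0.26 and CDC43 from -0.16 to 0.07. Array signals and backgrounds were not analysed here, so the limit set by dim probes is unknown. With 2 arrays per pool of 1 cross each, the spread between crosses was not measured.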
